A study of Mus musculus with 2 samples.

Results

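The heat shock proteins and chaperones described here are 10 genes, taken by symbol from the 25906 features of the deposited matrices, and each symbol was listed once. They are the stress-inducible Hsp70 genes Hspa1a and Hspa1b, the constitutive cytosolic Hsp70 Hspa8, the endoplasmic reticulum Hsp70 Hspa5, the small heat shock proteins Hspb1 and Cryab, the cytosolic Hsp90 genes Hsp90aa1 and Hsp90ab1, and the co-chaperones Dnajb1 and Hsph1. They were measured by droplet single-cell RNA sequencing in brain endothelial cells and astrocytes sorted from adult mice. There was 1 library labelled IL34LacZ/LacZ, which the submitters treat as knockout of the cytokine gene Il34, and 1 library labelled IL34LacZ/+, which they treat as wild type although it carries a LacZ allele too. Age beyond adult, sex, strain, sort markers and how many mice went into a library are not given in the sources used here. Since each genotype is 1 library, no test could be made, no difference has a replicate check, and genotype, animal and library cannot be told apart.

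Chaperones bind unfolded or aggregation-prone proteins and help them to fold. Hsp70 proteins work in cycles of ATP hydrolysis that J-domain proteins such as Dnajb1 start and nucleotide exchange factors such as Hsph1 reset, Hsp90 acts on kinases, receptors and other clients, and small heat shock proteins hold clients without ATP. Heat and other stress release heat shock factor Hsf1, which binds inverted GAA repeats, the heat shock element, while unfolded protein in the endoplasmic reticulum acts through the endoplasmic reticulum stress element on genes such as Hspa5. Hspa1a and Hspa1b are also among the genes known to be induced in brain cells by tissue dissociation.

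Promoter windows, from 250 bases before to 50 after the annotated start, were held for 6 of the 10 genes in the RefSeq table of build GRCm38.p6. Those of the genes on which the results turn are printed here, since Hspa1a, Hspa1b and Hspb1 share the letters of a heat shock element and Hspa5 has those of the endoplasmic reticulum element. Each is read 5′ to 3′ on the gene's strand, and capitals mark the matches. The windows are chr17:34972107-34972406 on the minus strand for Hspa1a, chr17:34959189-34959488 on the minus strand for Hspa1b, chr5:135887669-135887968 on the plus strand for Hspb1 and chr2:34771840-34772139 on the plus strand for Hspa5.
Hspa1a: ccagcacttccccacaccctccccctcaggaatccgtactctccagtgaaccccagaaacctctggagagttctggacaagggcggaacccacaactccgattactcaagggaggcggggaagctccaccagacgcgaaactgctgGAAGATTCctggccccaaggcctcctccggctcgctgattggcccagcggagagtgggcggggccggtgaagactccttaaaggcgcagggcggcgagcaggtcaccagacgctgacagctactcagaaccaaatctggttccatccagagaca
Hspa1b: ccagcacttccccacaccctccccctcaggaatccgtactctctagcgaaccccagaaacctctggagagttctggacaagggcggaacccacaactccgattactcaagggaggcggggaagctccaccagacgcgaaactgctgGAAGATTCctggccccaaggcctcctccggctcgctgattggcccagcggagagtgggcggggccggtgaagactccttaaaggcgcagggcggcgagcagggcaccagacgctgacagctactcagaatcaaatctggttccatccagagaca
Hspb1: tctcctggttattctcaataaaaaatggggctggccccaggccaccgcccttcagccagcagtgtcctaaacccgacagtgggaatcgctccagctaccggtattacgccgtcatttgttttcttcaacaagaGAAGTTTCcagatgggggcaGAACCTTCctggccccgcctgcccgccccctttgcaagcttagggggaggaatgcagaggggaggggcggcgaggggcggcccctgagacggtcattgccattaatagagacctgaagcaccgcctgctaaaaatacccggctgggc
Hspa5: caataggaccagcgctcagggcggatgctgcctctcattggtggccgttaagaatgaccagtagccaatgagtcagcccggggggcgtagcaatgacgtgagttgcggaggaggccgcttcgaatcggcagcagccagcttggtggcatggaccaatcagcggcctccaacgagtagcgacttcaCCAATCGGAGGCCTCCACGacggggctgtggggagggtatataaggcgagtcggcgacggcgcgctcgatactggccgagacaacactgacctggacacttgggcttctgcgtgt

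The windows of Hspa1a and Hspa1b differed at 4 of 300 bases, and each held GAAGATTC 104 bases before the start. The Hspb1 window held 2 matches, 117 and 97 bases before the start. The letters searched for were GAANNTTC and TTCNNGAA, each of which reads the same on both strands. Of 32851 promoter windows, 7.86% held GAANNTTC, 8.52% held TTCNNGAA and 15.1% held either. Hsph1 held 1 match of GAANNTTC that overlapped 1 of its 2 matches of TTCNNGAA, and Dnajb1 held neither. The endoplasmic reticulum element, CCAAT and CCACG with 9 bases of any kind between them, was searched on both strands. It was in the Hspa5 window 65 bases before the start and in 39 of 32851 windows (0.119%). A match describes the letters and does not show binding. Hspa1a (ENSMUSG00000091971) and Hspa1b (ENSMUSG00000090877) are neighbours on chromosome 17, at 34969190 to 34972156 and 34956436 to 34959238 in GRCm38. They are near-identical copies whose reads could be split in counting, but in the last 500 bases of their transcripts, where the tags of a 3-prime library mostly lie, none of 411 windows of 90 bases of one was found in the other.

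The matrices held 36696941 UMIs over 5400 barcodes for IL34LacZ/LacZ and 26679053 UMIs over 3901 barcodes for IL34LacZ/+. Filtering left 1168 cells with a median of 10378 UMIs in IL34LacZ/LacZ and 1665 cells with a median of 8096 UMIs in IL34LacZ/+. Cells were assigned to classes by a marker gate that used none of the 10 genes, and 1093 and 1558 of them passed it. Endothelial-like cells numbered 279 in the library labelled IL34LacZ/LacZ and 494 in that labelled IL34LacZ/+, and astrocyte-like cells numbered 113 and 248. The sort thus held other classes, with 224 and 247 oligodendrocyte-like cells, 248 and 337 choroid plexus epithelium-like cells, 44 and 32 pericyte-like cells, and 77 and 88 cells that passed the gate of Slc47a1, Bnc2 and Rspo3, called Slc47a1+ cells here. Barcodes gated by haemoglobin genes numbered 62 and 28. They enter only the likeness of genes over classes and are otherwise not described. In pericyte-like cells Il34 was not lower in the library labelled IL34LacZ/LacZ, at 525 CPM (438 to 625) against 378 CPM (287 to 487) in that labelled IL34LacZ/+. In Slc47a1+ cells it had 0 UMIs (up to 2.96 CPM) against 7 UMIs (4.99 CPM, 2.01 to 10.3). Choroid plexus epithelium-like cells had 0 against 4 UMIs. The sources used here do not give the position of the LacZ insertion. A tag outside it checks nothing, so each library is named by its label. The libraries shared 8 barcode sequences, of which 2 were kept as cells in both. Levels are CPM, the count of a gene scaled to a common total of UMIs of its class, and all intervals are 95% intervals for counting error only, which do not allow for UMIs that come together in a few cells.

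Among the 6 classes shown in the plot of levels, oligodendrocyte-like cells, the myelinating class, held the highest mean level of the libraries for 8 of the 10 genes. Microglia-like cells, of which there were only 10 and 43, lay above them in that mean for 3 of the 8, Hspa1a (1065 and 83.5 CPM), Hspa1b (1065 and 322 CPM) and Hspa8 (1597 and 847 CPM). Classes are called ordered where both library values of one lie above both of the other. This did not hold for the lead in 3 genes, namely Hspa8 over choroid plexus epithelium-like cells and Hspa1a and Hspa1b over Slc47a1+ cells. Set against all other gated cells, without the barcodes gated by haemoglobin genes, 7 genes were over 2-fold higher in oligodendrocyte-like cells in both libraries, namely Hspa1a, Hspa1b, Cryab, Hsp90aa1, Hsp90ab1, Dnajb1 and Hsph1, while 12.7% of the 12757 genes measured were. Of the 10, Hspb1 alone was over 2-fold lower there, beside 29.1% of all genes. The sorted types stood at the other end of this comparison. The counts of the other cells were summed. Oligodendrocyte-like and choroid plexus epithelium-like cells, the classes with most UMIs, thus weigh most in what the sorted types are set against. Pericyte-like cells were too few to be compared in this way. In endothelial-like cells 9 of the 10 were over 2-fold lower than in other cells (30.5% of all genes), and in astrocyte-like cells all 10 were (23.3% of all genes). Hspb1 was over 2-fold higher in endothelial-like cells, where 21.9% of all genes were, and also in Slc47a1+ cells (11.8% of all genes), where Cryab was lower (16.9%). In choroid plexus epithelium-like cells Hspa1a and Hspa1b were lower, beside 56.0% of all genes. In astrocyte-like cells 15.6% of all genes were higher.

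**Figure D1:**
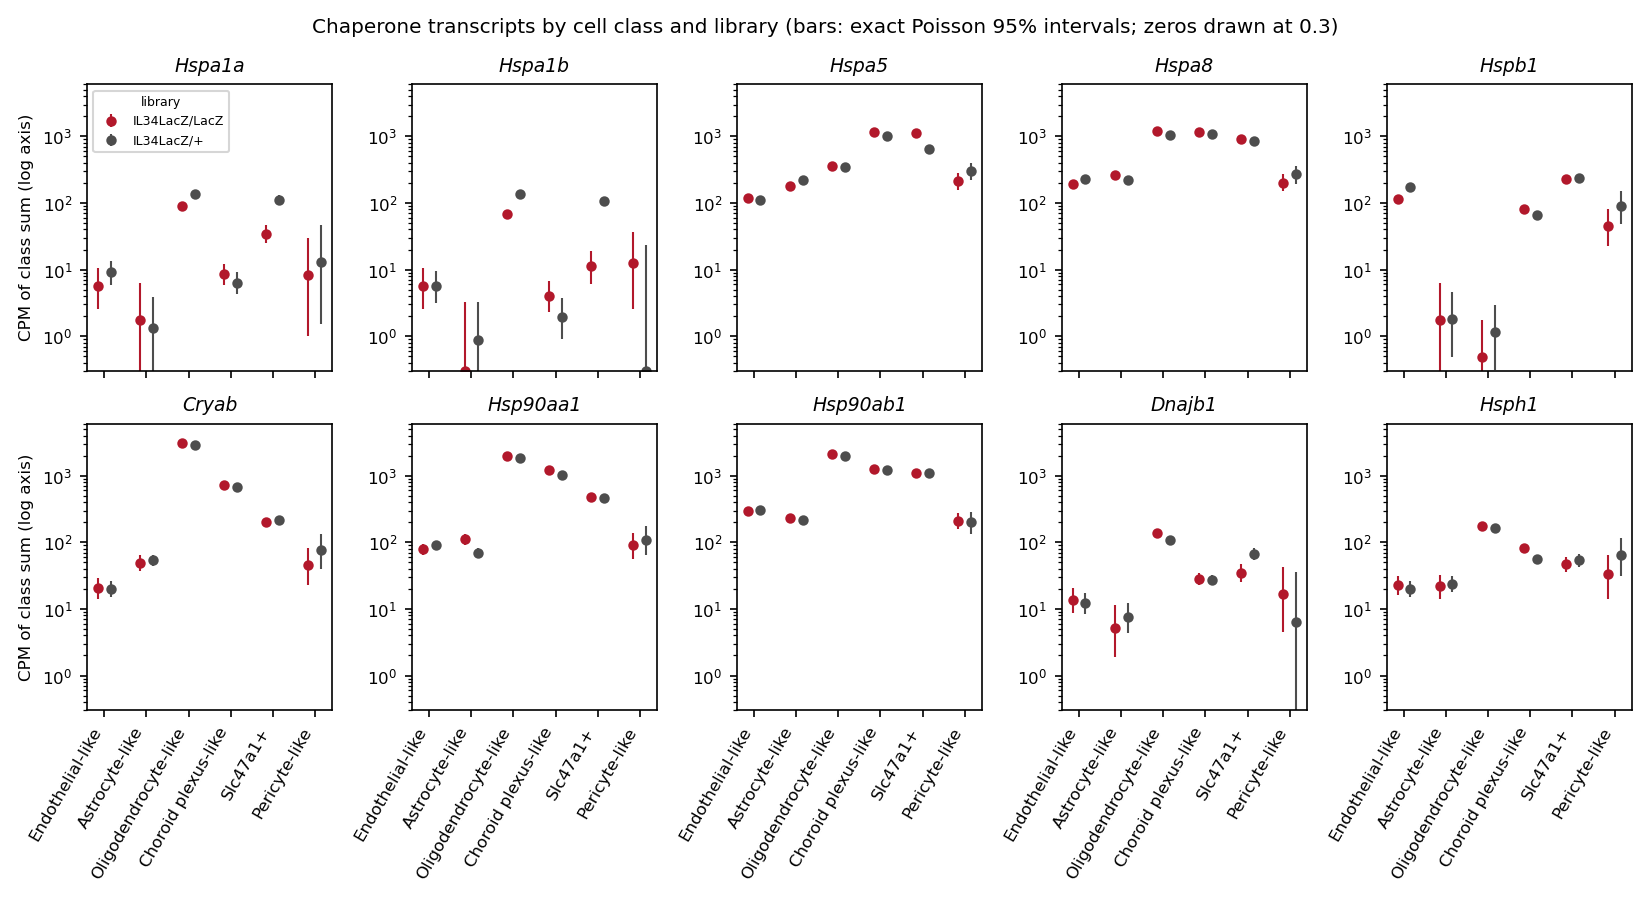
Level of each gene in 6 classes (x axis) as CPM of the summed counts (y axis, log scale), in the library labelled IL34LacZ/LacZ in red and that labelled IL34LacZ/+ in grey, with exact Poisson 95% intervals. Cryab stands at 3113 and 2932 CPM in oligodendrocyte-like cells, and Hspb1 is nearly absent from them and from astrocyte-like cells.

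Cryab, a small heat shock protein known as an abundant transcript of mature oligodendrocytes, had 3113 CPM (library labelled IL34LacZ/LacZ) and 2932 CPM (IL34LacZ/+) in oligodendrocyte-like cells. It had 723 and 664 CPM in choroid plexus epithelium-like cells, 200 and 220 CPM in Slc47a1+ cells, 49.0 and 53.9 CPM in astrocyte-like cells, and 20.5 and 20.2 CPM in endothelial-like cells. This order held in both libraries, except that pericyte-like cells, at 45.5 and 76.8 CPM, did not keep their place beside astrocyte-like cells. A Cryab UMI was found in 99.6% and 96.0% of oligodendrocyte-like cells, and in 88.8% and 81.8% after each cell had been thinned to 1000 UMIs, which left out no cell. In endothelial-like cells the shares were 10.0% and 9.51%, and 2.15% and 1.82% after thinning.

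Hspb1, a small heat shock protein that also acts on the actin skeleton, had another distribution. It was highest in Slc47a1+ cells, at 226 and 233 CPM, followed in both libraries by endothelial-like cells at 116 and 173 CPM. Choroid plexus epithelium-like cells had 80.1 and 66.5 CPM and pericyte-like cells 45.5 and 89.6 CPM, and these classes did not keep the same order. Astrocyte-like cells had 1.75 and 1.78 CPM and oligodendrocyte-like cells 0.48 and 1.14 CPM. A UMI of Hspb1 was found in 31.9% and 33.6% of endothelial-like cells at a median depth of 4979 and 4488 UMIs. The shares were only 1.77% and 1.61% of astrocyte-like cells at 9048 and 8584 UMIs, and the part of free RNA in them was not tested. After thinning they were 9.68% and 12.1% of endothelial-like cells and 0 of 113 and 0 of 248 astrocyte-like cells, for which counting alone allows up to 3.21% and 1.48%.

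Among the Hsp90 genes, the stress-responsive form Hsp90aa1 had 2000.2 and 1857 CPM in oligodendrocyte-like cells, 1235 and 1012 CPM in choroid plexus epithelium-like cells, and 474 and 460 CPM in Slc47a1+ cells. Its levels in pericyte-like, astrocyte-like and endothelial-like cells lay between 69.0 and 110 CPM and kept no common order. The constitutive form Hsp90ab1 had 2114 and 1999.9 CPM in oligodendrocyte-like cells, 1253 and 1201 CPM in choroid plexus epithelium-like cells, 1088 and 1084 CPM in Slc47a1+ cells and 300 and 305 CPM in endothelial-like cells. Hspa8, which among other tasks uncoats clathrin vesicles, had 1188 and 1059 CPM in oligodendrocyte-like cells, 1161 and 1068 CPM in choroid plexus epithelium-like cells and 190 and 233 CPM in endothelial-like cells. For each of these 3 genes the classes shown in the plot of levels thus fell into a high and a low set. Oligodendrocyte-like, choroid plexus epithelium-like and Slc47a1+ cells made up the high set, and pericyte-like cells and both sorted types the low set. Microglia-like cells, not shown there, lay above the low set in both libraries, for example with Hsp90ab1 at 1360 and 680 CPM. These sums rest partly on single cells. In the library labelled IL34LacZ/LacZ the top cell held 51 of 55 UMIs of Hsp90aa1, 13 of 23 of Hsp90ab1 and 15 of 27 of Hspa8. In that labelled IL34LacZ/+ the top cell held 9 of 18 UMIs of Hsp90aa1.

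Of the co-chaperones, Dnajb1 had 138 and 110 CPM in oligodendrocyte-like cells, 34.5 and 67.7 CPM in Slc47a1+ cells, 28.4 and 27.1 CPM in choroid plexus epithelium-like cells, 13.7 and 12.2 CPM in endothelial-like cells and 5.25 and 7.57 CPM in astrocyte-like cells. Hsph1 had 174 and 162 CPM in oligodendrocyte-like cells, 81.7 and 55.8 CPM in choroid plexus epithelium-like cells and 47.3 and 54.2 CPM in Slc47a1+ cells. Its levels in astrocyte-like cells, 21.9 and 23.6 CPM, and in endothelial-like cells, 23.0 and 20.2 CPM, were not ordered.

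Hspa5, also called BiP, the endoplasmic reticulum chaperone that holds the sensors of the unfolded protein response, was over 2-fold higher in choroid plexus epithelium-like cells than in other cells, where 10.9% of all genes were. It had 1169 and 1019 CPM there, 363 and 344 CPM in oligodendrocyte-like cells, 181 and 220 CPM in astrocyte-like cells and 120 and 110 CPM in endothelial-like cells. Slc47a1+ cells had 1126 and 642 CPM and so differed between the libraries.

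The share of ribosomal protein UMIs also differed between classes. It was higher in oligodendrocyte-like, choroid plexus epithelium-like and Slc47a1+ cells, the high set of Hsp90aa1, Hsp90ab1 and Hspa8. Within that set the share had another order than the levels of these genes. Its median was 0.48% and 0.65% in endothelial-like and 0.50% and 0.54% in astrocyte-like cells, against 3.35% and 3.53% in oligodendrocyte-like, 6.86% and 6.60% in choroid plexus epithelium-like and 7.67% and 7.64% in Slc47a1+ cells. Within the cells under 2% ribosomal protein UMIs, a split chosen after seeing the data, oligodendrocyte-like cells had 1506 and 1476 CPM of Hsp90aa1, beside 76.1 and 77.7 CPM in endothelial-like cells. Cryab in those cells was 1410 and 873 CPM, beside 21.5 and 21.9 CPM in endothelial-like cells. The part of the ribosomal share in the class levels was not tested.

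Over the 14 class-by-library points of 7 classes, of which 1 is the barcodes gated by haemoglobin genes, the gene most like Hspa5 among 7894 genes was Hsp90b1 (Pearson r of log2(CPM + 1) = 0.97), the Hsp90 of the endoplasmic reticulum, followed by the lectin chaperone Calr (0.97) and the oligosaccharyltransferase subunit Dad1 (0.96). For Hspa1b it was Dnajb1 (0.90), closely followed by Slc16a7 (0.90). For Cryab it was the ferritin chain Fth1 (0.98) and then Glp2r (0.97) and Hsp90aa1 (0.96). For Hspb1 it was the interferon-induced Ifitm2 and Ifitm3 (0.97 each). The genes next to Hspa1a were the kinase gene Mapk3 (0.95) and the immediate-early genes Jund (0.93) and Fos (0.91). The gene most alike was Mrfap1 for Hspa8 (0.99), Rnf7 for Hsp90aa1 (0.97), Set for Hsp90ab1 (0.98), Shtn1 for Dnajb1 (0.95) and Vbp1 for Hsph1 (0.98). Both points of a class share its cell type and every point of a library its depth, so these values describe the classes and carry no test. Between members, r was 0.96 for Cryab and Hsp90aa1 and -0.38 for Cryab and Hspb1.

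The UMIs of the inducible Hsp70 genes lay in a minority of cells. Hspa1a had 88.7 and 137 CPM and Hspa1b 67.9 and 137 CPM in oligodendrocyte-like cells. Of these cells, 53 (23.7%) in the library labelled IL34LacZ/LacZ and 59 (23.9%) in that labelled IL34LacZ/+ held at least 3 UMIs of both genes together. They carried 89.4% and 93.5% of the UMIs, a share partly built in, since they were picked by these UMIs. No UMI of either gene was found in 120 and 139 cells of the class. In endothelial-like cells, where Hspa1a had 9 and 24 UMIs in all, 1 cell in each library reached 3 UMIs, and in astrocyte-like cells none of 113 and none of 248 did. A Hspa1a UMI was found in 32.6% and 34.0% of oligodendrocyte-like cells and in 1.77% and 1.21% of astrocyte-like cells, and after thinning in 8.48% and 8.10% of oligodendrocyte-like cells and no astrocyte-like cell. The genes were found together in many of these cells: of oligodendrocyte-like cells with a Hspa1a UMI, 43 of 73 and 42 of 84 also had one of Hspa1b, which was found in 74 and 66 cells of the class.

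Cells with at least 3 UMIs of the pair, a choice that favours deeper cells (median 18512 and 16922 UMIs, against 15511 and 12318 in cells with none), also held more of other members. In oligodendrocyte-like cells Dnajb1 had 273 CPM in such cells and 40.6 CPM in cells with no UMI of the pair in the library labelled IL34LacZ/LacZ, and 229 and 46.8 CPM in that labelled IL34LacZ/+. Hsph1 had 295 and 106 CPM, and 291 and 115 CPM. Fos, an immediate-early gene, had 1150 and 348 CPM, and 1085 and 192 CPM. The abundant members differed less, with Hspa8 at 1268 and 1097 CPM, and 1167 and 983 CPM. Among these Hsp90aa1 differed more than Hspa8, at 2433 and 1745 CPM, and 2336 and 1575 CPM. In the 19 such Slc47a1+ cells of the library labelled IL34LacZ/+, Hspb1 had 519 CPM, against 132 CPM in the 51 cells with none, whereas Hspa5 had 599.7 and 636 CPM. Fos differed more than Hspb1 there, at 3054 and 222 CPM. These values rest on 1 library each and were not tested.

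The genotype comparison asked whether levels in a class differed between the libraries. The rule called a gene higher or lower where its CPM ratio, IL34LacZ/LacZ over IL34LacZ/+, passed 1.5-fold with an interval that left out 1, among genes that reached 30 UMIs in that class. In Slc47a1+ cells 4 of 10 members passed, 1 higher and 3 lower, beside 9.02% of all 9059 genes measured. In oligodendrocyte-like cells 2 of 9 passed, both lower, beside 4.91% of 9945. In astrocyte-like cells 1 of 6 passed, higher, beside 5.97% of 9720 (2.29% higher and 3.67% lower). In endothelial-like cells 0 of 9 passed, beside 9.08% of 9589 (3.21% higher and 5.87% lower), and in choroid plexus epithelium-like cells 0 of 9, beside 8.54% of 9156 (7.20% higher and 1.34% lower). The median log2 ratio of the measured members was -0.09 in Slc47a1+ cells, 0.09 in oligodendrocyte-like, 0.00 in astrocyte-like, -0.02 in endothelial-like and 0.20 in choroid plexus epithelium-like cells. Over all measured genes it was -0.07, -0.04, -0.04, -0.03 and 0.10 in the same classes.

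**Figure D2:**
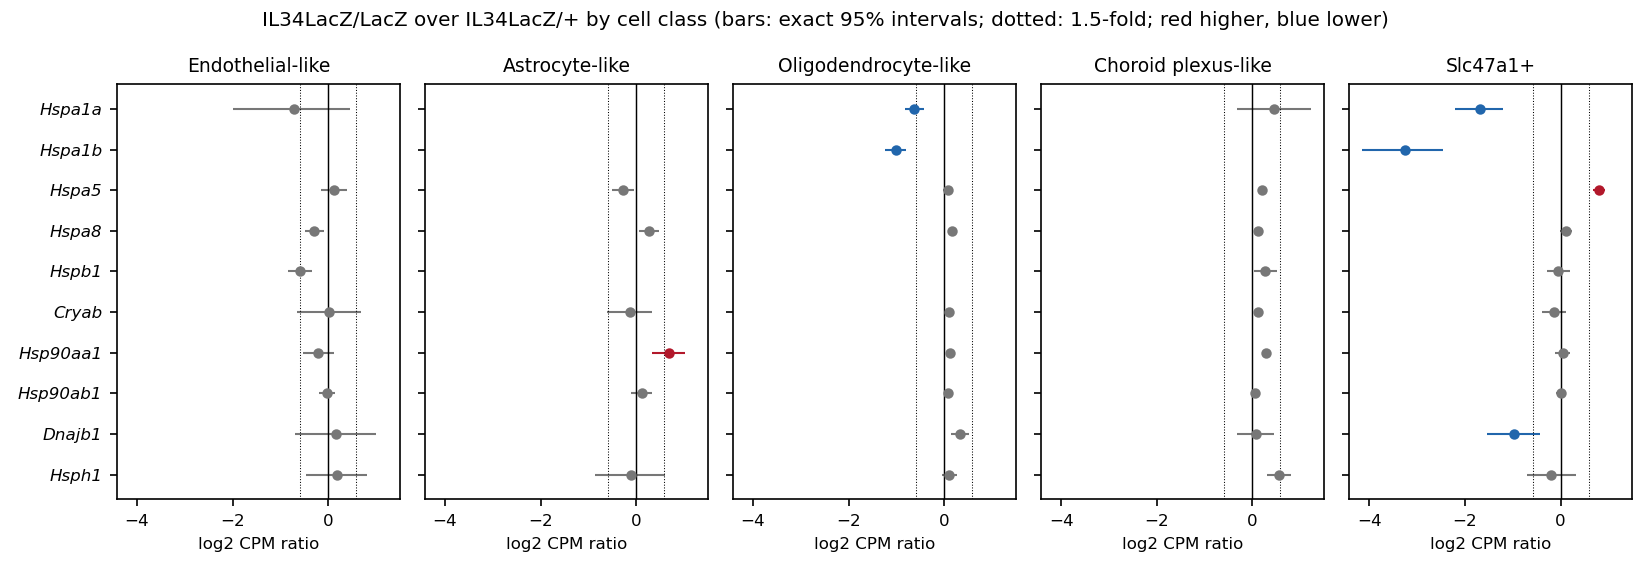
Log2 ratio of CPM, IL34LacZ/LacZ over IL34LacZ/+ (x axis), for each measured gene (y axis) in 5 classes, with exact 95% intervals for counting error; dotted lines mark 1.5-fold. Hspa1a and Hspa1b lie on the lower side in oligodendrocyte-like and Slc47a1+ cells, and Hspa5 on the higher side in Slc47a1+ cells.

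In Slc47a1+ cells Hspa1a was lower in the library labelled IL34LacZ/LacZ, with 34.5 CPM (43 UMIs in 77 cells) against 111 CPM (156 UMIs in 88 cells) in that labelled IL34LacZ/+, a log2 ratio of -1.69 (-2.21 to -1.19). Hspa1b had 11.2 CPM (14 UMIs) against 106 CPM (149 UMIs), -3.24 (-4.15 to -2.45). Dnajb1, the J-domain partner of inducible Hsp70, had 34.5 CPM (43 UMIs) against 67.7 CPM (95 UMIs), -0.97 (-1.53 to -0.44). Of the library labelled IL34LacZ/LacZ 3 cells (3.90%), and of that labelled IL34LacZ/+ 19 (21.6%), held at least 3 UMIs of the Hsp70 pair. These cells, picked by the UMIs of the pair, carried 54.4% and 92.1% of them. With the top 2% of cells for each gene left out, the ratios were -2.28, -2.97 and -0.77. Of 17 measured immediate-early genes 4 were lower and none was higher (5.38% and 3.64% of all genes). Fosb had 153 against 325 CPM and Egr1 175 against 371 CPM, and their part in the result was not tested. The median share of mitochondrial UMIs was 9.95% and 6.99%, and that of ribosomal protein UMIs 7.67% and 7.64%. All 6 fibroblast markers were detected in these cells in both libraries, summing to 2445 and 2535 CPM. So were all 8 astrocyte markers, summing to 2142 and 2636 CPM. The 8 endothelial markers, of which 6 and 8 were detected, summed to 12.8 and 105 CPM, and the part of these in the result was not tested.

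Hspa5 went the other way in the same cells. It had 1126 CPM (1404 UMIs) in the library labelled IL34LacZ/LacZ and 642 CPM (901 UMIs) in that labelled IL34LacZ/+, a log2 ratio of 0.81 (0.69 to 0.93). The median over cells was 687 and 581 CPM and the upper quartile 1357 and 854 CPM, so the libraries differed mostly in the upper part of the distribution. With the top 2% of cells for Hspa5 left out, the ratio was 0.72. Of 19 measured genes of other endoplasmic reticulum chaperones and the unfolded protein response, 5 were higher and 1 was lower, beside 3.64% and 5.38% of all genes. Those named here were chosen after their values were seen. Manf, a secreted stress-responsive factor, had 510 against 301 CPM, Calr 698 against 461 CPM, Dnajb9, a J-domain partner of Hspa5, 110 against 69.1 CPM, and Sdf2l1 67.4 against 40.6 CPM. Creld2 had 45.7 against 29.9 CPM, and Ddit3, a transcription factor of the late response, was the 1 lower gene at 24.1 against 39.2 CPM. The remaining members, Hspa8, Hspb1, Cryab, Hsp90aa1, Hsp90ab1 and Hsph1, had log2 ratios between -0.20 and 0.11, each with an interval that held 0.

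**Figure D3:**
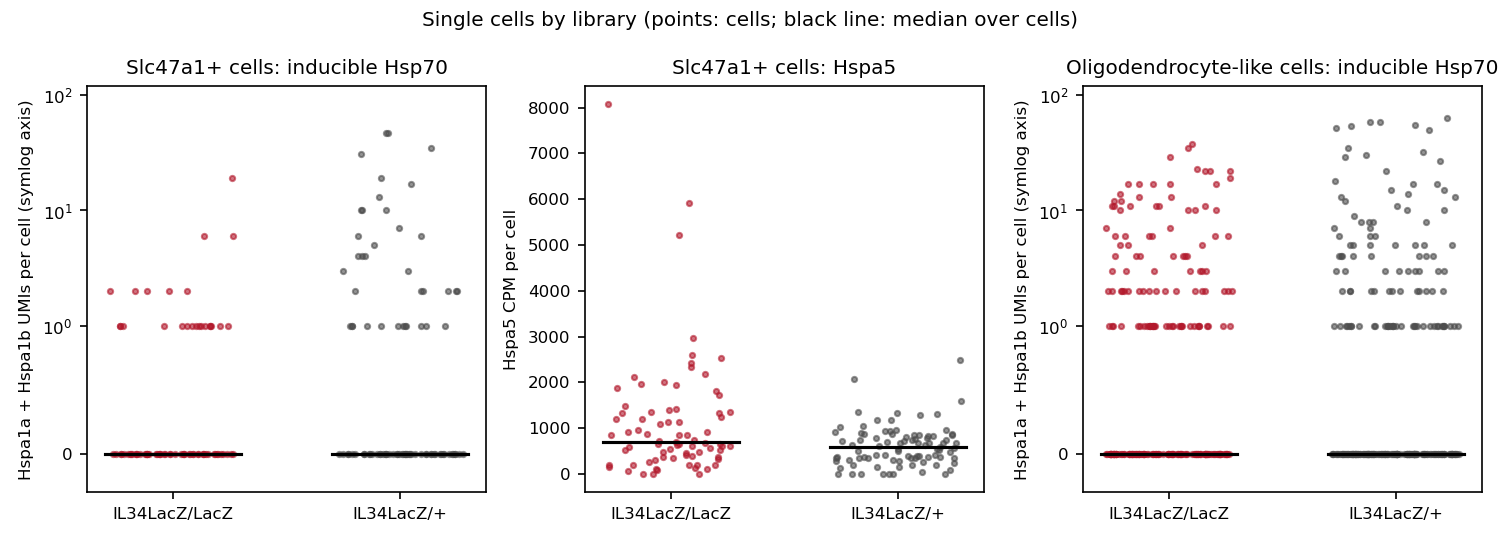
Single cells of the 2 libraries (x axis): UMIs of Hspa1a and Hspa1b together in Slc47a1+ cells (left) and oligodendrocyte-like cells (right), on a scale that is linear below 1 and logarithmic above, and Hspa5 CPM in Slc47a1+ cells (middle); black lines are medians. In Slc47a1+ cells 3 and 19 cells reach 3 UMIs of the pair, and in oligodendrocyte-like cells 53 and 59 do.

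In oligodendrocyte-like cells Hspa1a had 88.7 CPM (367 UMIs) in the library labelled IL34LacZ/LacZ and 137 CPM (480 UMIs) in that labelled IL34LacZ/+, a log2 ratio of -0.63 (-0.83 to -0.43). Hspa1b had 67.9 CPM (281 UMIs) against 137 CPM (480 UMIs), -1.02 (-1.23 to -0.80). With the top 2% of cells for each gene left out, Hspa1a had -0.40 (-0.64 to -0.16), short of 1.5-fold. Hspa1b then had -0.82 (-1.08 to -0.56). A Hspa1b UMI was found in 33.0% of cells of the library labelled IL34LacZ/LacZ and 26.7% of that labelled IL34LacZ/+, unmatched for depth. After thinning to equal depth the shares were 4.91% (2.48% to 8.62%) and 7.29% (4.38% to 11.3%). The thinned shares went the way of the ratio, but their intervals overlapped, so no direction is read from detection. The share of cells with at least 3 UMIs of the pair was close, at 23.7% and 23.9%. This cut was not matched for depth between the libraries. The pair summed to 648 and 960 UMIs. Dnajb1 had 138 against 110 CPM, a log2 ratio of 0.33 (0.15 to 0.52), and Hsph1 174 against 162 CPM, so these members did not share the direction. Of 14 measured immediate-early genes 5 were higher and none was lower (2.16% and 2.75% of all genes), for example Ier2 at 60.4 against 27.2 CPM. The 9 choroid plexus epithelium markers, of which 8 and 9 were detected in these cells, summed to 642 and 2376 CPM, and the part of either in the result was not tested. Cells under 2% ribosomal protein UMIs numbered 28 of 224 and 74 of 247. In them Hspa1a had 164 against 86.0 CPM and Hspa1b 133 against 71.1 CPM, log2 ratios of 0.93 and 0.90. These values rest on 3 cells of the library labelled IL34LacZ/LacZ, which held 54 of its 58 UMIs of Hspa1a and 41 of 47 of Hspa1b, while the top 3 cells of that labelled IL34LacZ/+ held 26 of 52 and 28 of 43. Without these cells, a choice made after seeing the data, the other 25 and 71 cells had 15.3 against 44.5 CPM of Hspa1a and 23.0 against 25.7 CPM of Hspa1b, so no direction is read from the cells under 2%. In cells of 2% and over the ratios were -0.86 and -1.29.

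**Figure D4:**
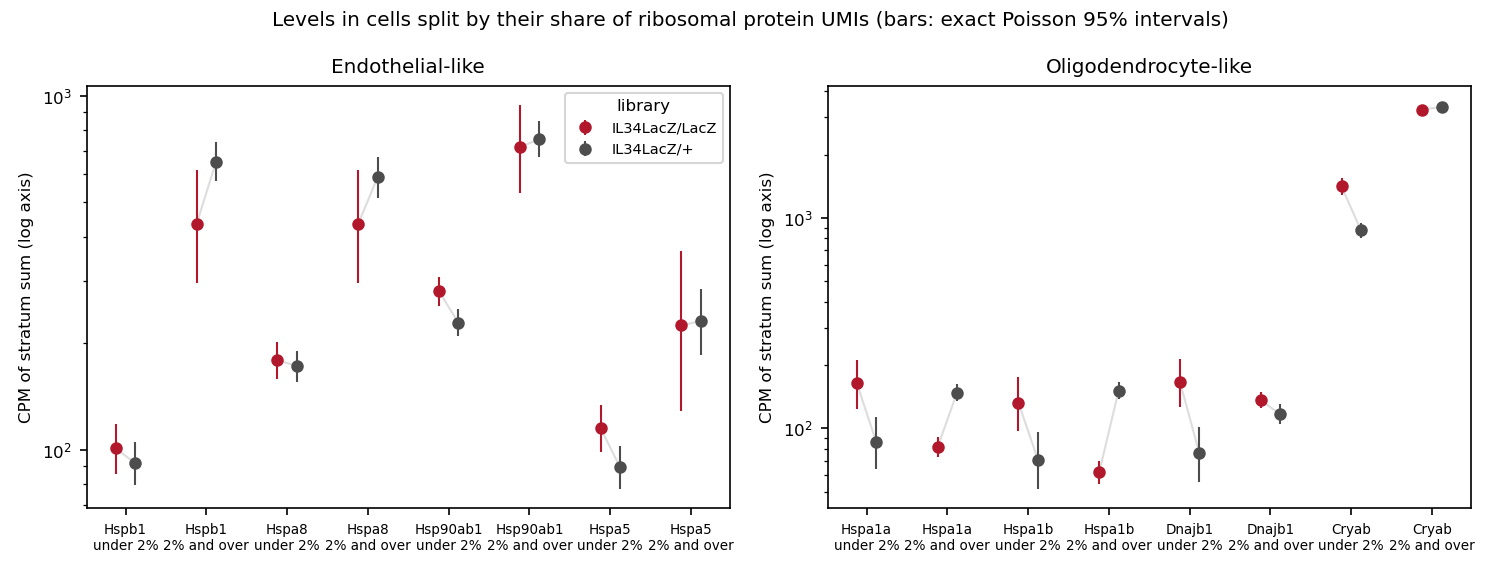
CPM (y axis, log scale) of 4 genes in endothelial-like cells (left) and 4 in oligodendrocyte-like cells (right), in cells under 2% and in cells of 2% and over of ribosomal protein UMIs (x axis), with exact Poisson 95% intervals. In oligodendrocyte-like cells Hspa1a is 164 and 86.0 CPM under 2%, where 3 of 28 cells hold 54 of the 58 UMIs of IL34LacZ/LacZ, and 81.6 and 148 CPM at 2% and over, for IL34LacZ/LacZ and IL34LacZ/+.

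In endothelial-like cells, 1 of the sorted types, none of the 9 measured members passed the rule. Hspb1 came nearest to it, with 116 CPM (186 UMIs) in the library labelled IL34LacZ/LacZ against 173 CPM (453 UMIs) in that labelled IL34LacZ/+, a log2 ratio of -0.58 (-0.83 to -0.33). Cells of 2% and over of ribosomal protein UMIs numbered 10 of 279 and 64 of 494, and they held 31 of 186 and 248 of 453 UMIs of Hspb1, at 435 and 651 CPM. In the cells under 2% Hspb1 had 101 and 91.6 CPM, a log2 ratio of 0.14 (-0.17 to 0.45). Hspa8 had 190 against 233 CPM, -0.29 (-0.49 to -0.09), and 179 against 172 CPM in the cells under 2%. Hsp90ab1 differed little, at 300 against 305 CPM, -0.02 (-0.19 to 0.14). Of 6 genes of the heat shock factor and ubiquitin list 4 passed as lower, beside 5.87% of all genes, among them the polyubiquitin gene Ubb (121 against 213 CPM), the autophagy receptor Sqstm1 (54.7 against 83.2 CPM) and the Hsf1-binding Hsbp1 (21.8 against 35.1 CPM). Fewer genes passed in each of the other chaperone lists, to be set beside the same 5.87% of all genes lower. Of 7 mitochondrial chaperones and proteases Clpp and Lonp1 were lower (log2 ratios of -1.20 and -1.10), of 20 cytosolic co-chaperones the Hsp90 activator Ahsa1 (-0.88) and of 8 chaperonin subunits Cct6a (-0.68). Of 18 endoplasmic reticulum genes none was lower and 1, the lectin chaperone Canx, was higher, at 187 against 124 CPM, beside 3.21% of all genes. Of 16 measured immediate-early genes 6 were lower and none was higher (5.87% and 3.21% of all genes). Among the lower genes Fos had 9 UMIs against 62 UMIs (a log2 ratio of -2.08) and Jun 68.4 against 137 CPM. Junb, Jund, Klf2 and Klf4 had log2 ratios between -0.88 and -0.63. The median ribosomal share in this class was 0.48% in the library labelled IL34LacZ/LacZ and 0.65% in that labelled IL34LacZ/+. Its part in the values of these lists was not tested.

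In astrocyte-like cells Hsp90aa1 was the 1 member that passed, with 110 CPM (126 UMIs) in the library labelled IL34LacZ/LacZ against 69.0 CPM (155 UMIs) in that labelled IL34LacZ/+, a log2 ratio of 0.68 (0.33 to 1.02). A single cell held 44 of the 126 UMIs (34.9%). With the top 2% of cells for Hsp90aa1 left out, the ratio was 0.26 (-0.18 to 0.68), and under a stricter gate it was -0.030. Hspa8 had 262 against 218 CPM, 0.27 (0.05 to 0.48), and Hspa5 181 against 220 CPM, -0.28 (-0.52 to -0.04). Of 21 cytosolic co-chaperones 1 passed, Cacybp, a partner of Siah ubiquitin ligases, higher at 36.8 against 16.5 CPM. Of 18 endoplasmic reticulum genes 1 was lower, the stress transcription factor Atf4 at 23.6 against 38.3 CPM, and of 7 mitochondrial ones 1, the chaperonin Hspd1 at 38.5 against 58.3 CPM. These counts stand beside 2.29% higher and 3.67% lower over all genes. Hspa1a, Hspa1b, Hspb1 and Dnajb1 had too few UMIs to compare.

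In choroid plexus epithelium-like cells Hsph1 came nearest to the rule, with 81.7 CPM (302 UMIs) in the library labelled IL34LacZ/LacZ against 55.8 CPM (255 UMIs) in that labelled IL34LacZ/+, a log2 ratio of 0.55 (0.30 to 0.80). Hsp90aa1 had 1235 against 1012 CPM, 0.29 (0.23 to 0.35), and Hspa5 1169 against 1019 CPM, 0.20 (0.14 to 0.26), both set against the median of 0.10 over all genes. Of 8 measured immediate-early genes 7 were higher, beside 7.20% of all genes, and Fos had 42.8 against 3.28 CPM. Their part in the members' ratios was not tested. Hspa1a had 8.66 against 6.35 CPM (32 and 29 UMIs), and 11 of the 32 UMIs lay in 1 cell.

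Smaller classes held too few cells for a comparison. Of 10 microglia-like cells in the library labelled IL34LacZ/LacZ, 1 held all 36 UMIs of Hspa1a and Hspa1b, and of 43 in that labelled IL34LacZ/+, 4 cells held 97.1% of 34. Of 18 fibroblast-like cells in the library labelled IL34LacZ/+, 1 held 98.4% of 62 UMIs. The 44 and 32 pericyte-like cells had 5 and 2 UMIs of the pair.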

How the data were processed

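Per the file headers, the authors made the deposited UMI counts per gene and barcode with Cell Ranger 7.1.0, and per the submitters' processing notes the genome was mm10 (GRCm38.p6). Libraries were made with the 10x Chromium 3-prime kit, per the labels' protocols. The annotation release and any removal of free RNA are not given in the sources used here. Counts were used as deposited. Barcodes were kept from 1000 UMIs and 500 genes upward and up to 15% mitochondrial UMIs, and Scrublet in scanpy 1.11.5 marked 7 and 3 of them as doublets in the libraries labelled IL34LacZ/LacZ and IL34LacZ/+, few for libraries of this size, so doublets may remain.

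Each cell took the class with the highest mean marker score if the score reached 1, led the next class by 1 and rested on 3 detected markers. These levels were set after the scores had been seen; 36 and 58 cells lay within 0.5 below the lead required and 80 and 118 within 0.5 above it. Counts were summed per class and library. CPM values carry exact Poisson intervals, shares Clopper-Pearson intervals and ratios exact conditional binomial intervals. Intervals and floors cover counting error only. A gene was measured at 30 UMIs in the class, in classes of at least 100 cells. Named genes are the 10 members, genes of the lists past the rule in endothelial-like or astrocyte-like cells (at most 10 per class by size of ratio) and the 3 genes most alike in level over classes of at least 20 cells in each library, among genes of at least 50 CPM; others were chosen after their values were seen. The members, lists and markers were chosen with earlier results of these data known. Gene positions are from GENCODE M21 and promoters from the RefSeq table.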

Additional observations from a re-analysis of the deposited data

How the results depend on the processing

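No paired analysis was possible because there is 1 library per genotype, and for the same reason no library could be left out. Of the 7 ratios past the rule, 91 values under alternatives were computed and 4 had the other sign. These were Hsp90aa1 in astrocyte-like cells under a stricter gate (-0.030) and, in cells under 2% ribosomal protein UMIs, Hspa1a (0.93) and Hspa1b (0.90) in oligodendrocyte-like cells, where 3 of 28 cells labelled IL34LacZ/LacZ held 54 of 58 and 41 of 47 UMIs, and Hspa5 (-0.35) in Slc47a1+ cells, where that stratum holds 3 and 11 cells. That split, and one to cells with under 1% haemoglobin UMIs, were added after seeing the data. Of 566 alternative values of all ratios, 53 lay outside the main interval.

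Counts of members past 1.5-fold moved as follows, and the cause was not tested unless given. In cells under 2% ribosomal protein UMIs, 4 members were higher and 0 lower in oligodendrocyte-like cells, of which Hspa1a, Hspa1b and Dnajb1 (55 of 59 UMIs) rest on those 3 cells, and 0 higher and 0 lower in Slc47a1+ cells, with few UMIs left. After thinning to 1000 UMIs, which leaves fewer UMIs, 1 was lower in astrocyte-like, 1 lower in oligodendrocyte-like, 1 higher in choroid plexus epithelium-like and 0 lower in Slc47a1+ cells. With the top 2% of cells for a gene left out, 0 were higher in astrocyte-like and 1, Hspa1b, was lower in oligodendrocyte-like cells. In choroid plexus epithelium-like cells 1 was then higher. Under the stricter gate 0 were higher in astrocyte-like cells. In endothelial-like cells 1 was lower with Leiden classes, 2 by the mean over cells of the CPM of each cell and 1 in cells with under 1% haemoglobin UMIs, and that mean gave 1 higher in choroid plexus epithelium-like cells. Centred on the median gene, Hsp90ab1 in choroid plexus epithelium-like cells was -0.04 in place of 0.06. The class of highest level was the same for 10 members with Leiden classes, 10 at 2000 UMIs per cell and 9 with mitochondrial, ribosomal protein and haemoglobin genes left out of the total, where Hspa8 was highest in choroid plexus epithelium-like cells. Thinning lowered 146 of 160 shares of cells with a UMI.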
